A study of Mus musculus with 20 samples.

Results

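The genes described here encode the enzymes that make and break down coenzyme A (CoA), 10 genes chosen by name: Nudt19, Nudt7, Nudt8, Vnn1, Vnn3, Pank1, Pank2, Pank3, Ppcs and Coasy. For each, the probe set whose platform annotation names that gene alone was taken. Each of the 10 had exactly 1 such probe set, and all 10 passed the filter on dim genes, which left 14190 of 19938 measured genes for testing. Liver RNA came from male mice of NZO/Hl (NZO), a polygenic strain used as a model of obesity and diabetes, C3H from the Jackson Lab, 129P2/OlaHsd (129P2) and C57/Bl6 (B6), with 5 animals a strain and 1 array an animal. All animals were 6 weeks old and were fed a high-fat diet (45% of energy as fat) that began when they were weaned at 21 days. No gene was manipulated in these animals, and inbred strains differ at many loci at once, so each comparison is between whole genetic backgrounds.

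CoA carries acyl groups in fatty acid oxidation, fatty acid synthesis and the citric acid cycle, and the liver holds a large and regulated store of it. It is built from pantothenate (vitamin B5): pantothenate kinases phosphorylate the vitamin, Ppcs adds cysteine, Ppcdc removes a carboxyl group, and Coasy completes the cofactor in a pair of steps. Nudix hydrolases in peroxisomes and mitochondria split CoA again, and pantetheinases outside the cell release pantothenate from the breakdown product pantetheine.

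Values are log2 expression, and 1 unit is a doubling of signal. Levels are compared between strains within a probe set only. The summed signals of cell markers given below are the exception, and the brightest markers weigh most in them. Of 8 hepatocyte markers, among them Alb and Ttr, none passed the threshold in any of the 6 pairwise comparisons and each was above the dim limit on at least some arrays of every strain. A value is called dim here if it does not exceed the 40th percentile of all probe sets on that array. The arrays differed in the spread of their values, with interquartile ranges of 2.202 to 2.495 in NZO, 2.171 to 2.395 in C3H, 2.192 to 2.37 in 129P2 and 2.34 to 2.479 in B6. Fitted as a covariate, this spread was followed by 4 of the 10 genes (Nudt19, Vnn3, Pank2 and Coasy), against 49.0% of all tested genes. Each test below is limma's moderated test over all tested genes with Benjamini-Hochberg adjustment, and "called" means an adjusted p under 0.05. The p-values set a strain difference against the spread between animals of a strain, and they take these animals as independent. The labels number the arrays but do not describe litters or cages, so this could not be checked.

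Of the 10 genes, 4 differed among the 4 strains by the moderated F-test: Nudt19 (F = 58.0, adjusted p = 2.03e-08), Vnn3 (F = 55.2, adjusted p = 3e-08), Vnn1 (F = 27.1, adjusted p = 7.08e-06) and Coasy (F = 5.7, adjusted p = 0.0323). Of all tested genes 17.0% did. The 10 genes were chosen with earlier results of these data known. Counts above such shares, here and below, are therefore no independent evidence. Coasy's F-test was not past the threshold without B6 replicate 1, 4 or 5 (adjusted p = 0.0581, 0.0822 and 0.0581), without NZO replicate 2, 3 or 5 (0.0877, 0.0636 and 0.087) or without the 3 arrays of narrowest spread (0.0678). The share of a gene's variance that lay between strains was 90.6% for Nudt19, 89.7% for Vnn3 and 79.0% for Vnn1, against a median of 25.9% over all tested genes. Pank1, by contrast, had 1.11% of its variance between strains. So the 10 genes ranged from nearly the most to nearly the least strain-dependent, at percentiles of 99.4 for Nudt19 and 0.55 for Pank1 among tested genes.

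**Figure D1:**
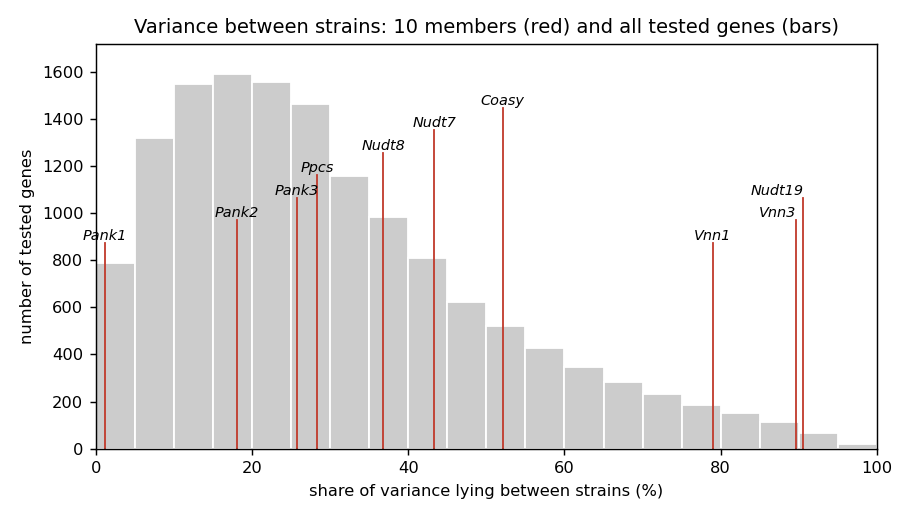
The x axis is the share of a gene's variance over 20 arrays that lies between the 4 strains (%), and the y axis the number of tested genes in each bin of 5 percentage points (grey bars). Red lines mark the 10 genes of CoA metabolism. Nudt19 (90.6%), Vnn3 (89.7%) and Vnn1 (79.0%) lie in the right tail, and Pank1 (1.11%) lies in the leftmost bin.

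The Nudix hydrolases split CoA into an adenosine nucleotide and phosphopantetheine. Nudt19 and Nudt7 are the peroxisomal enzymes, Nudt19 being known mainly from mouse kidney and Nudt7 from liver, and Nudt8 is the mitochondrial one. Nudt19, after which the series is titled, read 7.59, 7.38, 7.32, 7.42 and 7.69 in the 5 NZO livers. The C3H livers read 8.71, 8.80, 8.49, 8.75 and 8.69. The 129P2 livers read 8.58, 7.93, 8.49, 8.64 and 8.34, and the B6 livers 8.87, 8.60, 8.71, 8.87 and 8.71. All 5 NZO values lay below the lowest value of each other strain, and the other 3 strains overlapped each other. Nudt19 was lower in NZO than in B6 by a log2 difference of -1.27 ± 0.11 (SE; limma adjusted p = 2.48e-08), than in C3H by -1.21 ± 0.11 and than in 129P2 by -0.91 ± 0.11. Nudt19 ranked 29 by its smallest difference among the 173 genes (1.22% of those tested) that were lower in NZO than in each other strain. Leaving out each animal in turn moved these differences within -1.32 to -1.23, -1.26 to -1.17 and -1.03 to -0.85. In the order of means, B6 (8.75) and C3H (8.69) differed by -0.06 (95% interval -0.29 to 0.16) as C3H minus B6, and 129P2 (8.39) followed before NZO (7.48). The 129P2 minus B6 difference of -0.36 (95% interval -0.58 to -0.13) missed the threshold (limma adjusted p = 0.0516). It passed without B6 replicate 2, C3H replicate 3 or 129P2 replicate 1 or 4 (0.0457, 0.0439, 0.0391 and 0.026). It shrank to -0.21 in the fit that included array spread (adjusted p = 0.256), to -0.24 without the 3 arrays of narrowest spread (0.105) and to -0.24 without 129P2 replicate 2 (0.15). The arrays served a search for candidate genes. If Nudt19 was selected on them, its p-values here are no independent evidence. Whether sequence differences between the strains lie under the probes of Nudt19, or of any other probe set here, was not tested.

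Of the 10 genes, 8 have an entry in the RefSeq promoter table (GRCm38.p6; 250 bases before to 50 after a start). That table is of the C57BL/6J genome, so it holds no allele of the other strains. The promoters of Nudt19 and Nudt7 are shown because the peroxisomal pair differed in strain pattern, and capitals mark matches, on either strand, to the motifs AGGTCA (a nuclear receptor half-site), a direct repeat of this half-site with 1 base between the copies (the element bound by PPAR-alpha with RXR, which overlaps the half-site), the CCAAT box, the GC box with the letters GGGCGG, and the TATA box with the letters TATAAA. Nudt19 lies on the minus strand at chr7:35555879-35556178, and Nudt7 on the plus strand at chr8:114133368-114133667.
Nudt19: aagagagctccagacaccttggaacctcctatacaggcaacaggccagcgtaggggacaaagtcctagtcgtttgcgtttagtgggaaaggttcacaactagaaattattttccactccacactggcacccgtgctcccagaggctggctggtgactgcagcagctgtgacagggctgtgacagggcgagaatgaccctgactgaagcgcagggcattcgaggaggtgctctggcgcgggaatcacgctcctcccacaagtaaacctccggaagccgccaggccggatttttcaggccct
Nudt7: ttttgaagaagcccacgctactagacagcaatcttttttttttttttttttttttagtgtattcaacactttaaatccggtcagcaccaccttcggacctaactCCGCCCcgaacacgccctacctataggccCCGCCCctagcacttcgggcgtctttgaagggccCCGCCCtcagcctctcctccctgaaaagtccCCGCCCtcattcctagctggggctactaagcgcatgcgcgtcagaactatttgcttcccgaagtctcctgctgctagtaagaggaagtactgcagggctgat
The Nudt19 window held none of the 5 motifs and has 57% G and C. The table holds 2 overlapping Nudt7 windows, for different starts, and the first listed is shown. In it GGGCGG lay on the opposite strand 4 times, beginning at positions -146, -117, -83 and -52 from the start. Counted from the other start, these sites begin at -102, -73, -39 and -8. Of 32851 promoters of the same length, 35.7% hold GGGCGG, 37.4% CCAAT, 16.3% AGGTCA, 13.6% TATAAA and 0.0396% the direct repeat.

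Nudt7 was called in no NZO comparison. Its values were 12.51, 12.55, 12.39, 12.77 and 12.63 in NZO, and 12.75, 12.64, 12.61, 12.73 and 12.74 in C3H. In 129P2 they were 12.49, 11.97, 12.38, 12.01 and 12.44, and in B6 12.46, 12.74, 11.94, 12.47 and 12.52. Every C3H value lay above every 129P2 value, and all other pairs of strains overlapped. Nudt7 was higher in C3H than in 129P2 by 0.44 ± 0.12 (SE; limma adjusted p = 0.0357), about 1.35-fold. That call was lost with no filter on dim genes (adjusted p = 0.0514) and without the 3 arrays of narrowest spread (0.134). Leaving out C3H replicate 1, 3, 4 or 5 also ended it (0.0762, 0.0501, 0.0799 and 0.08), as did leaving out 129P2 replicate 2 or 4 (0.0936 and 0.104). Over the 3 NZO comparisons Nudt7 differed by 0.14, -0.13 and 0.31 from B6, C3H and 129P2 (SE 0.12 each, limma adjusted p = 0.478, 0.73 and 0.129). The last of these passed without B6 replicate 3 (adjusted p = 0.0479). The F-test of Nudt7 (adjusted p = 0.0555) passed without B6 replicate 2 or 3 (0.0288 and 0.0151), and likewise when 129P2 replicate 1 or 5 was left out (0.0359 and 0.0488).

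Nudt8 moved less than either peroxisomal gene. Its strain means were 8.10 ± 0.13 in NZO, 8.22 ± 0.07 in C3H, 8.08 ± 0.12 in 129P2 and 8.01 ± 0.12 in B6 (log2 level, SD, n = 5). The C3H values, from 8.14 to 8.31, all lay above the B6 values, from 7.81 to 8.10, but the difference of 0.21 ± 0.08 was not called (SE; limma adjusted p = 0.0873). It was past the threshold after another quantile normalization (0.25, adjusted p = 0.0414), but not in the fit that included array spread (0.23, adjusted p = 0.111). Against B6, C3H and 129P2, NZO differed in Nudt8 by 0.09, -0.12 and 0.02 (SE 0.08), with adjusted p of 0.447 or more.

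**Figure D2:**
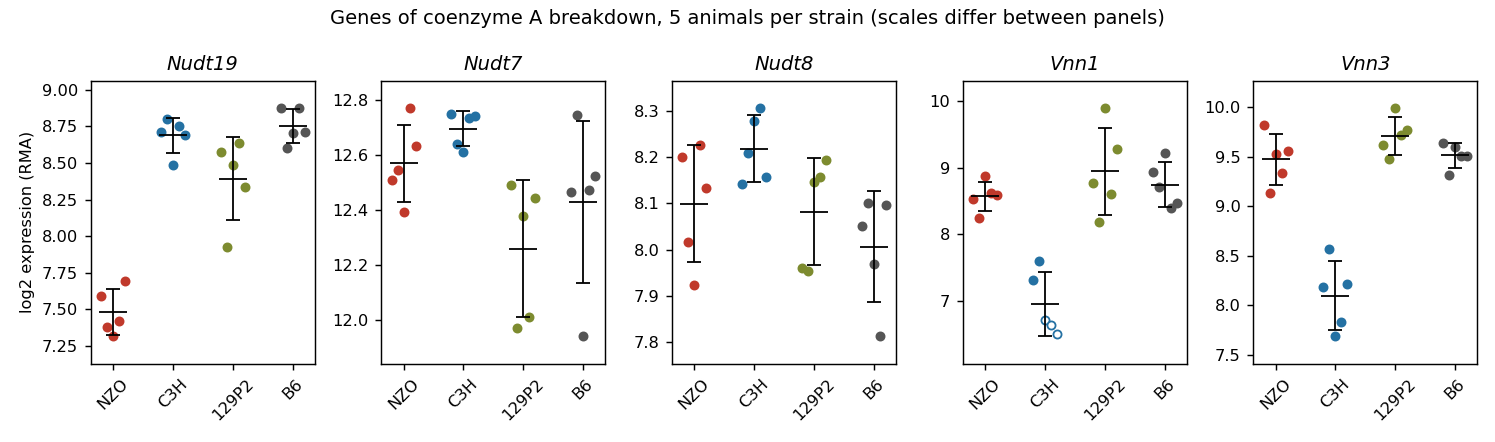
The y axis of each panel is log2 expression (RMA) of 1 gene, on its own scale, and the x axis the strain. Points are single animals (open where the value is dim), and bars give the mean and SD of 5 animals. NZO sits below the other strains in Nudt19 (7.32 to 7.69), and C3H sits below them in Vnn1 (6.50 to 7.61) and Vnn3 (7.69 to 8.57).

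The pantetheinases Vnn1 and Vnn3 were low in C3H. Vnn1 is anchored to the outer cell membrane, where it releases pantothenate and cysteamine from pantetheine, and in mouse liver it is a known target of the fatty acid receptor PPAR-alpha. Vnn3 is its close relative at the same locus. Vnn1 read 7.32, 7.61, 6.71, 6.64 and 6.50 in the 5 C3H livers, the last 3 of these being dim. NZO livers read 8.53, 8.25, 8.87, 8.62 and 8.59, 129P2 livers 8.76, 8.19, 9.89, 8.61 and 9.27, and B6 livers 8.94, 8.71, 9.22, 8.40 and 8.47. No C3H value reached the lowest value of another strain, while NZO, 129P2 and B6 overlapped throughout. Vnn1 was lower in C3H than in B6 by a log2 difference of -1.79 ± 0.25 and than in 129P2 by -1.99 ± 0.25 (SE; limma adjusted p = 3.54e-05 and 8.78e-06), so C3H held 28.9% and 25.2% of their signal. With the 3 dim values raised to their arrays' 40th percentile (an alternative added once the values were known), the differences were -1.77 and -1.97. As NZO minus C3H the Vnn1 difference was 1.61 ± 0.25, or 3.06-fold.

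Vnn3 had the same strain lowest. Its pooled within-strain SD was 0.244, against 0.455 for Vnn1, although in NZO the SD of Vnn3 (0.26) was above that of Vnn1 (0.22). C3H livers read 8.18, 8.57, 7.69, 7.83 and 8.22, all of them above the dim limit. The other strains read 9.82, 9.13, 9.53, 9.34 and 9.56 in NZO, 9.62, 9.47, 9.99, 9.72 and 9.78 in 129P2, and 9.64, 9.32, 9.60, 9.51 and 9.50 in B6. Again C3H did not overlap any other strain. Vnn3 was lower in C3H than in B6 by -1.42 ± 0.14 and than in 129P2 by -1.62 ± 0.14, leaving 37.4% and 32.6% of their signal, and NZO minus C3H was 1.38 ± 0.14 (SE; limma adjusted p = 3.94e-07, 4.73e-08 and 4.13e-07). Among the 91 genes lower in C3H than in each other strain (0.641% of those tested), Vnn1 ranked 2 and Vnn3 ranked 7 by their smallest difference. NZO, 129P2 and B6 were not told apart for either gene, with differences between them from -0.37 to 0.20, although a fit that included array spread called Vnn3 higher in 129P2 than in B6 (0.45, limma adjusted p = 0.0108). Without the 3 arrays of narrowest spread that Vnn3 difference was 0.26 and not called (limma adjusted p = 0.278). Leaving out each animal in turn kept all 6 C3H calls for both genes, with adjusted p of 0.000648 at most.

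The Vnn3 promoter is shown because the pair moved together. Vnn1 has no entry in that table. Vnn3 lies on the plus strand at chr10:23851212-23851511, and capitals again mark the motifs listed for Nudt19.
Vnn3: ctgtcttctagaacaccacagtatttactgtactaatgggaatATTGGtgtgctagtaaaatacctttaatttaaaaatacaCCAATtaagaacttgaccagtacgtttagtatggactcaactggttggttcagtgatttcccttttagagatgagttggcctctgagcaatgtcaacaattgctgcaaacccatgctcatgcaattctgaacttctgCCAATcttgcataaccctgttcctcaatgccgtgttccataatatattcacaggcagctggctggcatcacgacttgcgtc
CCAAT occurred 3 times, on the opposite strand from position -207 and on the gene's own strand from -168 and -31, and the other 4 motifs were not in this window. Its G and C content was 41.0%, against a median of 52.7% over all promoters. Of the 6 nearest tested genes around the pair, 3 on each side in the GRCm38.p6 gene order, Rps12, a ribosomal protein gene, was lower in C3H than in 129P2 (-0.44 ± 0.08, SE; limma adjusted p = 0.00158). Moxd1, a monooxygenase-like gene, was higher in NZO than in the other strains by 3.52 to 4.74, and the other 4 neighbours were called in no comparison. For all 9 loci together 12 of 54 neighbours (22.2%) were called in at least 1 comparison, against 21.7% of all tested genes. Around Nudt19 2 of 6 were called. Rhpn2 was lower in NZO than in B6 and 129P2 (-0.51 and -0.52 ± 0.15, SE; limma adjusted p = 0.0304 and 0.028). Dpy19l3 was called in all 6 comparisons and was higher in NZO than in each other strain, by 1.15 to 2.46.

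**Figure D3:**
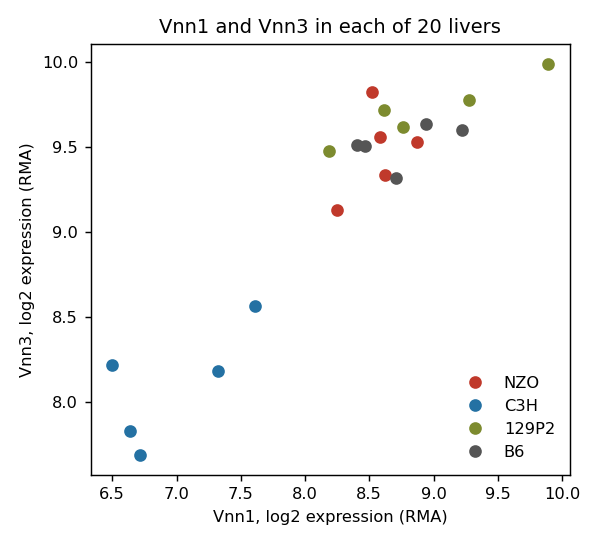
The x axis is the log2 expression (RMA) of Vnn1 and the y axis that of Vnn3, with 1 point for each of 20 livers, coloured by strain. The 5 C3H livers lie apart at the lower left (Vnn1 7.61 at most, Vnn3 8.57 at most), and the other 3 strains overlap.

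Between animals of the same strain Vnn1 and Vnn3 also tended to vary together (Pearson's r = 0.63 and Spearman's rho = 0.56 of deviations from strain means, 20 arrays, permutation p = 0.00405 and 0.0207), but neither passed adjustment over the 45 pairs of genes (0.0856 and 0.213). Without the 2 arrays farthest from the median, r was 0.56, and with array spread removed it was 0.58. The highest r of the 45 pairs was that of Vnn3 with Coasy (r = 0.71, rho = 0.70, permutation p = 0.00201 and 0.00329, adjusted 0.0856 and 0.148). It was 0.56 without 2 arrays and 0.37 with array spread removed, and the array spread itself had r = 0.79 with Vnn3 and 0.69 with Coasy within strains. No pair passed the adjustment.

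The synthesis genes differed little. Pantothenate kinases carry out the rate-controlling step and are inhibited by CoA and its thioesters, Pank1 being the main form in mouse liver and a known PPAR-alpha target. Pank1 lay between 10.74 and 11.06 in NZO, 10.32 and 11.21 in C3H, 10.71 and 11.10 in 129P2, and 10.75 and 11.01 in B6. Its strain means spanned 0.05, less than its within-strain SD of 0.194. Its differences in the 6 comparisons ran from -0.04 to 0.05, and none of their 95% intervals went beyond 0.29 in size. That bound corresponds to 1.22-fold. For Pank2 the differences ran from -0.10 to 0.12, for Pank3 from -0.11 to 0.20, and for Ppcs, which joins cysteine to phosphopantothenate, from -0.14 to 0.18. None of these was called (limma adjusted p of 0.217 or more). With Nudt8, these 4 make 5 genes called in no comparison, for which the 95% intervals allow differences of up to 1.31-fold.

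Coasy, the bifunctional enzyme of the closing steps, was the exception among synthesis genes. It read 9.07, 8.80, 8.98, 9.14 and 8.86 in NZO livers, and 9.20, 9.41, 8.94, 9.08 and 9.23 in C3H livers. It read 9.07, 9.18, 9.48, 9.21 and 9.23 in 129P2 livers and 9.38, 9.19, 9.32, 9.59 and 9.38 in B6 livers. The highest NZO value lay just under the lowest B6 value, and the C3H and 129P2 values overlapped both. Coasy was lower in NZO than in B6 by -0.40 ± 0.10 (SE; limma adjusted p = 0.00964), or 75.7% of the B6 signal, and this call held under each alternative tried, at -0.28 in the fit that included array spread (adjusted p = 0.0356). Against 129P2 the NZO difference of -0.26 ± 0.10 was not called (adjusted p = 0.11), but it was after another quantile normalization (0.041), with array weights (0.0234) and in the fit that included array spread (0.0148). The NZO minus C3H difference was -0.20 ± 0.10 (adjusted p = 0.319). The strain means ran in the order NZO 8.97, C3H 9.17, 129P2 9.23 and B6 9.37, with no neighbouring pair in this order called.

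**Figure D4:**
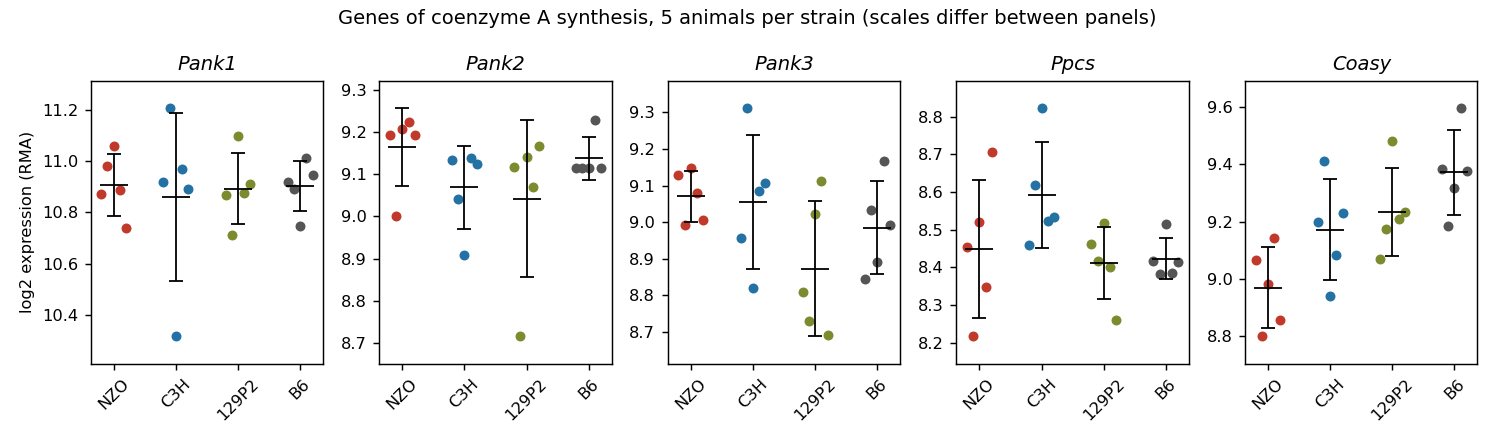
The y axis of each panel is log2 expression (RMA) of 1 synthesis gene, on its own scale, and the x axis the strain, with points for single animals and bars for the mean and SD of 5. Only for Coasy do all NZO values (8.80 to 9.14) lie below all B6 values (9.19 to 9.59). The strains overlap in the panels of Pank1, Pank2, Pank3 and Ppcs.

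Counted by comparison, 2 of the 10 genes were called in NZO minus B6, both lower (Nudt19 and Coasy), against 10.3% of all tested genes. In NZO minus C3H 3 were called (Nudt19 lower, Vnn1 and Vnn3 higher) against 6.60%, and in NZO minus 129P2 1 was called (Nudt19, lower) against 8.90%. In C3H minus B6 2 were called, both lower (Vnn1 and Vnn3), against 8.05%. None was called in 129P2 minus B6, where 6.19% of all tested genes were and Nudt19 alone had an unadjusted p under 0.05. In C3H minus 129P2 3 were called (Nudt7 higher, Vnn1 and Vnn3 lower) against 5.03%. The strains' values did not overlap for 2 of the 10 genes in NZO minus B6 (9.32% of all tested genes), 3 in NZO minus C3H (6.72%), 1 in NZO minus 129P2 (7.95%), 3 in C3H minus B6 (8.81%), none in 129P2 minus B6 (7.41%) and 3 in C3H minus 129P2 (5.40%). The median difference of the 10 genes was between -0.05 and 0.08 in the 6 comparisons, against 0.00 to 0.01 over all tested genes. The comparisons share strains, so the counts are not independent: the 11 calls rest on Nudt19 in NZO, the Vnn pair in C3H, and 1 call each of Coasy and Nudt7.

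**Figure D5:**
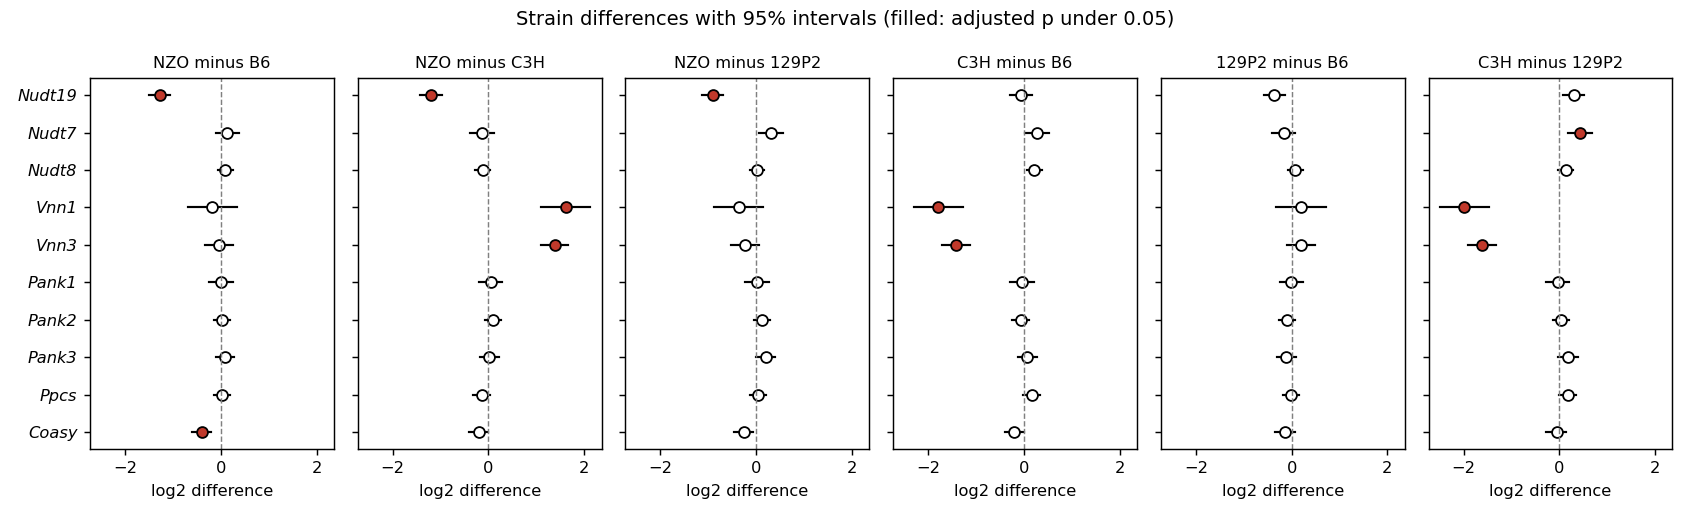
The x axis of each panel is the log2 difference of the comparison named above it, and the rows are the 10 genes, with 95% intervals from the limma fit. Filled points passed an adjusted p of 0.05. They are Nudt19 in the 3 NZO panels, Vnn1 and Vnn3 in the 3 panels with C3H, Coasy in NZO minus B6 and Nudt7 in C3H minus 129P2.

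The other CoA genes gave no call. Of 11 listed (Pank4, Ppcdc, Slc5a6 and Dcakd for synthesis and vitamin uptake, the carriers Slc25a42, Slc25a16 and Slc25a17, and Enpp1, Enpp3, Ado and Aasdhppt for breakdown and use), 10 were measured and tested, and none passed in any of the 60 gene-by-comparison tests by limma (8 had an unadjusted p under 0.05). Their differences ran from -0.30 to 0.33. The lowest adjusted p was that of Aasdhppt, which moves phosphopantetheine from CoA onto acceptor proteins, in NZO minus 129P2 (0.0525). By the F-test 0 of the 10 were called.

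Because Vnn1 and Pank1 respond to PPAR-alpha, other targets of this receptor were set beside them. This list, too, was chosen with earlier results of these data known. Of 18 listed, 16 were tested, and 7 of these differed among strains by the F-test, against 17.0% of all tested genes. In C3H minus B6, where Vnn1 and Vnn3 were lower, none of the 16 was called, against 8.05% of all tested genes. Their median difference was -0.21, against 0.00 over all tested genes. In C3H minus 129P2, where 5.03% of all tested genes were called in either direction, 4 were lower. They were the thioesterase Acot1 (-0.54 ± 0.15) and the fatty acid hydroxylases Cyp4a10 (-1.82 ± 0.43), Cyp4a14 (-3.57 ± 0.62) and Cyp4a31 (-1.93 ± 0.40; SE, limma adjusted p of 0.0308 or less). Cyp4a14 was dim on all C3H arrays, so the size of its difference is uncertain. With dim values raised, the Cyp4a14 difference was -3.26 (limma adjusted p = 0.00141), while Acot1 was no longer called (adjusted p = 0.0568). The Cyp4a genes were also higher in 129P2 than in B6 by 1.57 to 2.51, where Vnn1 and Vnn3 differed by 0.20 each and were not called. Plin2, a lipid droplet coat protein, was lower in 129P2 than in B6 (-0.58 ± 0.13, SE; limma adjusted p = 0.00611), so the list did not move one way. In the NZO comparisons 3, 1 and 4 of the 16 were lower against B6, C3H and 129P2 and none was higher, where 10.3%, 6.60% and 8.90% of all tested genes were called in either direction. Of the 4 against 129P2, Acot1 was dim on all NZO arrays. With dim values raised its NZO minus 129P2 difference was -0.46 (limma adjusted p = 0.0286), in place of -0.73. The call against C3H was that of Fabp1, a fatty acid binding protein, which was lower in all 3 (-0.34, -0.43 and -0.32, SE 0.08). Pank1 was called in none of these comparisons. The activity of PPAR-alpha was not measured, and its part in the differences of Vnn1 and Vnn3 was not tested.

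Markers of other liver cells moved with some of these comparisons. In bulk liver, fewer cells of a type and less RNA per cell cannot be told apart. Beside the lower Nudt19 in NZO, some endothelial and stellate cell markers were lower in the comparisons of NZO with B6, C3H and 129P2. These were 4, 3 and 3 of 6 endothelial markers and 3, 3 and 4 of 6 stellate cell markers. Of all tested genes 10.3%, 6.60% and 8.90% were called in these comparisons, in either direction. The log2 of the summed endothelial signal was 10.92 to 11.41 in NZO, 11.36 to 11.81 in C3H, 11.36 to 11.79 in 129P2 and 11.41 to 11.91 in B6. That of the stellate markers was 11.24 to 11.83 in NZO, 12 to 12.19 in C3H, 11.90 to 12.30 in 129P2 and 11.64 to 12.52 in B6. The macrophage marker Clec4f, 1 of 8, was also lower in NZO than in B6 (-0.69 ± 0.12) and than in 129P2 (-0.59 ± 0.12; SE, limma adjusted p = 0.000405 and 0.00176). Alas2, the only erythroid marker tested, was higher in NZO than in B6 (0.58 ± 0.11) and than in 129P2 (0.59 ± 0.11; SE, limma adjusted p = 0.0013 and 0.0011). Beside the lower Vnn1 and Vnn3 in C3H, 2 of 8 macrophage markers were lower than in B6 (Adgre1 and Csf1r). Against 129P2 2 were lower (Adgre1 and Timd4), while none of the 8 was called between NZO and C3H. Of all tested genes 8.05% were called in C3H minus B6 and 5.03% in C3H minus 129P2. Other markers went the opposite way. The stellate marker Rgs5, 1 of 6, was higher in C3H than in B6 (0.69 ± 0.14, SE; limma adjusted p = 0.0023). The endothelial marker Clec4g, 1 of 6, was higher in C3H than in 129P2 (0.43 ± 0.12, SE; limma adjusted p = 0.0367). The summed macrophage signal was 11.58 to 11.92 in C3H, against 11.59 to 12.40 in NZO, 11.77 to 12.86 in 129P2 and 11.94 to 12.48 in B6. Each of these endothelial, stellate and macrophage markers exceeded the dim limit on some arrays of every strain. Of 6 neutrophil markers, S100a8, Ly6g, Retnlg and Ngp were dim on every array, and S100a9 was higher in NZO than in B6 (0.39 ± 0.11, SE; limma adjusted p = 0.0285). Camp, the other neutrophil marker tested, was called in no comparison (NZO minus B6 0.15, limma adjusted p = 0.194). The log2 of the summed neutrophil signal was 9.01 to 9.28 in NZO, 8.73 to 9.01 in C3H, 8.77 to 9.04 in 129P2 and 8.73 to 8.81 in B6. This sum includes the 4 dim markers. The part of these cells in the differences of Nudt19, Vnn1 and Vnn3 was not tested.

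Over the 20 arrays, the genes whose pattern was most like that of Nudt19 were Gstm6, a glutathione transferase (Pearson's r = 0.96), Akr1c12, an aldo-keto reductase (0.93), and Uck2, a uridine-cytidine kinase (0.93). These correlations rest on the 4 strains, and within strains r was 0.77, 0.31 and 0.45. The nearest gene to Vnn1 was Vnn3 (0.93), followed by Gaa, lysosomal alpha-glucosidase (0.92), and Hsd17b13, a lipid droplet dehydrogenase (0.90). Vnn3 was nearest to Dock8 (0.96), Hsd17b13 (0.96) and Plcl2 (0.95), and Vnn1 came in place 9. Hsd17b13 averaged 10.74 in C3H, against 12.45 in NZO, 12.32 in 129P2 and 12.43 in B6. Coasy was nearest to Sdha, a subunit of succinate dehydrogenase (0.91, and 0.81 within strains), Gbe1, the glycogen branching enzyme (0.89), and Kif21a (0.89). Array spread was not removed from any of these correlations. Within strains it had r = 0.61 with Nudt19, 0.39 with Vnn1, 0.79 with Vnn3 and 0.69 with Coasy. Its part in the likeness of these genes was not tested.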

How the data were processed

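Liver RNA (150 ng, integrity number above 8, per the labels' protocols) was hybridized to 1 whole-transcript array an animal, and the deposited values are log2 expression, made by the authors with RMA in Affymetrix Expression Console, per the submitters' processing notes. Versions and the genome build are not given in the sources used here. Of 35556 probe sets, 21789 had 1 gene symbol in the platform annotation and were used, 1621 had several and 12146 were unnamed here. Where a gene had several (999 genes), the probe set of highest mean over the 20 arrays stood for it. The filter kept genes that exceeded the 40th percentile of the array on 5 or more arrays. Precision is limited by the number of arrays.

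Differences came from limma 3.58.1 (R 4.3.3) with 1 mean per strain over all 4 strains, an intensity trend, 16 residual and 6.37 prior degrees of freedom, and adjustment over 14190 genes. The fit was checked on simulated data. These had independent noise in each gene, so the check did not cover the array spread that many genes follow. Correlations used deviations from strain means and 100000 permutations within strains. Named genes were the 10 genes, called genes of the CoA and PPAR-alpha lists, called neighbours of the Vnn pair and of Nudt19, and the 3 genes most like Nudt19, Vnn1, Vnn3 and Coasy. Markers were counted by list. Alternatives were no filter or a 60th percentile filter, another quantile normalization, no trend, array weights, only the compared strains, averaging the probe sets of a gene, array spread (interquartile range) as a covariate, leaving out the 3 arrays of narrowest spread or each animal, and raising dim values to the 40th percentile, which was added after the data were seen. The genes and lists were chosen with earlier results of these data known. Replicate numbers follow accession order and pair nothing. Summaries and plots used Python 3.11.15 and matplotlib 3.10.9.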

Additional observations from a re-analysis of the deposited data

Results flagged for a closer look

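In 4 of 40 groups (10 genes in 4 strains) 1 animal was set off from the other 4 by a gap of over 0.71 of the group's range. Chance gives about 1 in 20 such groups. For Pank2, NZO replicate 2 read 9 against 9.19 to 9.22 in the other NZO livers, 129P2 replicate 2 read 8.72 against 9.07 to 9.17 in the other 129P2 livers, and B6 replicate 4 read 9.23 against 9.11 to 9.12 in the other B6 livers. For Ppcs, B6 replicate 3 read 8.52 against 8.38 to 8.42 in the other B6 livers. The gaps in B6, 0.11 for Pank2 and 0.1 for Ppcs, were below the pooled within-strain SDs of these genes (0.118 and 0.128). They were flagged because the other B6 values lay close together. NZO replicate 2 and 129P2 replicate 2 are also among the 3 arrays of narrowest spread (interquartile range 2.202 and 2.192). Neither gene was called in any comparison, with or without these animals.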

How the results depend on the processing

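The calls of Nudt19 in the 3 NZO comparisons, of Vnn1 and Vnn3 in the 3 C3H comparisons and of Coasy in NZO minus B6 kept their direction and stayed past the threshold under all 10 alternative settings and without each of 20 animals. The number of the 10 genes called in NZO minus 129P2 was 2 in place of 1 after another quantile normalization, with array weights and with array spread as a covariate, each time by adding Coasy. In 129P2 minus B6 it was 1 in place of 0 with the 60th percentile filter and with array weights, by adding Nudt19 (adjusted p = 0.0441 and 0.0292, although its difference was smaller with array spread as a covariate, at -0.21, adjusted p = 0.256), and with array spread as a covariate, by adding Vnn3. That covariate also brought Nudt19 past the threshold in C3H minus 129P2 (0.30, adjusted p = 0.0405). Without the 3 arrays of narrowest spread this Nudt19 difference was 0.23 and not called (adjusted p = 0.189). The F-test of Nudt7 passed with the 60th percentile filter, another quantile normalization and array weights (adjusted p = 0.0482, 0.0322 and 0.0337). It did not pass with array spread as a covariate (0.0592) or without the 3 arrays of narrowest spread (0.162). The cause of these changes was not tested. Without each animal in turn the counts were 2 to 2 in NZO minus B6, 3 to 3 in NZO minus C3H, 1 to 2 in NZO minus 129P2, 2 to 2 in C3H minus B6, 0 to 1 in 129P2 minus B6, 2 to 3 in C3H minus 129P2 and 3 to 5 by the F-test. Of the 60 differences 43 were called under no setting, and 20 of these, all uncalled, changed sign under at least 1. Each gene has 1 probe set, so the mean of probe sets changed only the adjustment. No paired analysis was possible because the labels give no shared replicate numbers.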
